A study of Mus musculus with 6 samples.

Results

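The mitochondrial genome encodes 13 mRNAs and 2 ribosomal RNAs, and all 15 have a row in the deposited count table. Described here are 8 of them, taken by their Entrez Gene identifiers: the complex III mRNA mt-Cytb, the complex IV mRNAs mt-Co1, mt-Co2 and mt-Co3, the complex V mRNAs mt-Atp6 and mt-Atp8, and the rRNAs mt-Rnr1 (12S) and mt-Rnr2 (16S). They are 8 of 27179 rows, and all 8 were among the 14199 genes that passed a filter on low counts. The study sequenced oligo(dT)-selected RNA from mouse embryonic stem cells of the ES-E14TG2a background, grown in 2i + Lif medium on gelatin. Every library came from cells that carry FLAG-Trim71, and the contrast is R783H, an amino-acid change in the RNA-binding protein Trim71 (libraries A, B and C), against the tagged wild-type form (WT; libraries A, B and C). The labels do not say whether the 3 libraries of a group are separate clones, cultures or preparations, so p-values measure the spread between these libraries, which may be technical. The samples have 1 genetic background and 1 culture condition, and no time course.

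Mitochondrial DNA is transcribed from both strands as long precursors, and tRNAs that lie between most genes are cut out to free the mRNAs and rRNAs. The mRNAs then receive a short poly(A) tail from the mitochondrial poly(A) polymerase Mtpap, and in some of them the tail also completes the stop codon. The rRNAs carry at most a few added adenosines, so a poly(A)-selected library holds them only in part. Cytochrome b is the catalytic core of complex III, Cox1 to Cox3 form the core of cytochrome c oxidase, and Atp6 and Atp8 belong to the membrane part of ATP synthase.

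The 3′ ends of the 8 genes are shown because selection with oligo(dT) acts on tails added to RNA ends. They are the last 30 bases of each GENCODE M21 transcript (GRCm38), in DNA letters, with the encoded stop bases in capitals. The end of mt-Atp8 lies within mt-Atp6 on a shared transcript, so it is not where that transcript ends.
mt-Cytb: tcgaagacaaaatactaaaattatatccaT
mt-Co1: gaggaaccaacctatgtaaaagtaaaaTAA
mt-Co2: ttcgaaaactgatctgcttcaataattTAA
mt-Co3: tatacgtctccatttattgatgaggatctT
mt-Atp6: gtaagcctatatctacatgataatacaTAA
mt-Atp8: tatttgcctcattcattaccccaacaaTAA
mt-Rnr1: aagcatactggaaagtgtgcttggaataat
mt-Rnr2: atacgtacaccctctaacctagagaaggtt
In mt-Cytb and mt-Co3 the gene ends 1 base past the last whole codon, with a T that needs the added tail to become a stop codon. In the other 4 mRNAs the gene ends in a complete TAA, though the last base of mt-Atp6 (chrM:8607) is also the first base of mt-Co3. The mt-Atp8 and mt-Atp6 reading frames overlap by 43 bases (chrM:7927-7969), with the start codon of mt-Atp6 and the stop codon of mt-Atp8 in capitals here.
mt-Atp8 and mt-Atp6 overlap: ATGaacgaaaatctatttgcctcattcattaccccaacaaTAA
The overlap is 21.1% of mt-Atp8 and 6.3% of mt-Atp6, and reads within it cannot be assigned to either gene by position.

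Total counts ran from 27807385 to 29079670 in R783H and from 20894277 to 25174121 in WT. Each count was worth 0.0333 to 0.0352 CPM (counts scaled to a common library size with TMM factors) in R783H and 0.0408 to 0.0495 CPM in WT. Trim71 mRNA itself ranged from 130.8 to 159.4 CPM in WT and from 129 to 151.7 CPM in R783H, and gene counts cannot show the amino-acid change. All 10 markers of naive embryonic stem cells were tested, and 60% were called (3 higher, 3 lower), against 64.5% of all tested genes. Their summed level was 7578 to 7717 CPM in R783H and 7684 to 7772 CPM in WT. Of 8 fibroblast (feeder) markers 4 were high enough to test, and 50% of these were called, with Pdgfrb higher (0.30, SE 0.09) and Thy1 lower (-2.74). The sum over these 4 was 11.4 to 11.7 CPM in R783H and 10.4 to 11.7 CPM in WT. Most of it was Pdgfrb, with means of 9.39 CPM in R783H and 7.59 CPM in WT. None of the 8 was at 0 in every library. Any part of such cells in the results below was not tested. R783H B was the lowest R783H library for 7 of the 8 mitochondrial genes, and it also differed most from its group over all genes, with a chi-square per degree of freedom of 8.76 and 9.59 against A and C, which differed from each other by 1.94.

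In R783H libraries these 6 mRNAs took a larger part of all counts than in WT libraries, and the 2 rRNAs a smaller one. The 6 mRNAs described here took 1.17%, 1.09% and 1.15% of all counts in R783H A, B and C, and 0.697%, 0.742% and 0.742% in WT A, B and C. The 2 rRNAs took 0.0416%, 0.0343% and 0.0425% in R783H against 0.0825%, 0.0892% and 0.0934% in WT. Neither share overlapped between the groups. For each of these shares the two-sided exact permutation test over libraries gave p = 0.1, the smallest that 3 against 3 allows. Most of the difference for the 6 mRNAs came from mt-Co1, at 0.956% ± 0.0230 of counts in R783H and 0.576% ± 0.0178 in WT (SD, n = 3 each). The difference between group means was 0.412 percentage points for the 6 mRNAs and 0.380 for mt-Co1 alone. In bulk RNA, fewer cells of a type and less RNA per cell cannot be told apart, and the same holds for fewer mitochondria and less RNA in each.

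Of the 8 genes, 4 were called higher in R783H (mt-Co1, mt-Co2, mt-Co3 and mt-Atp6), 2 lower (mt-Rnr1 and mt-Rnr2), and mt-Cytb and mt-Atp8 were not called. Calls are adjusted p-values under 0.05 (edgeR, quasi-likelihood; Benjamini-Hochberg, over the 14199 genes tested). The background is high, since 64.5% of all tested genes were called, 33.5% higher and 30.9% lower, so a count of 6 in 8 is near what the whole table shows. The groups did not overlap in CPM for 6 of the 8, against 68.1% of all tested genes; 4 of the 8 lay apart with R783H higher (35% of all genes) and 2 with R783H lower (33.1%). The rRNA mt-Rnr1 had a larger absolute change than all but 3.3% of tested genes, mt-Rnr2 than all but 6.0% and mt-Co3 than all but 6.9%.

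**Figure D1:**
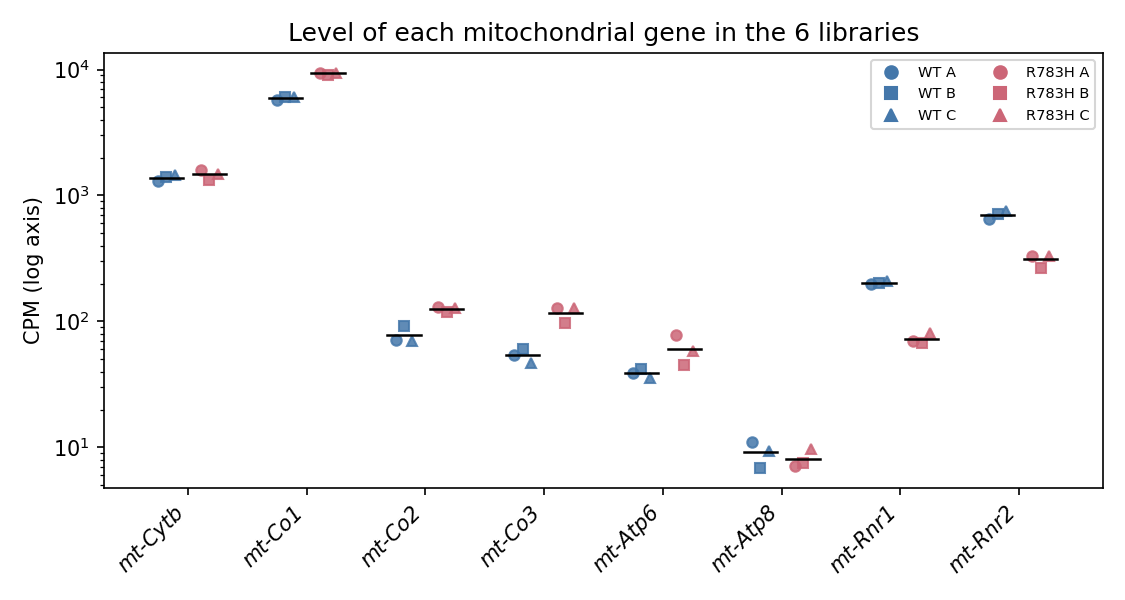
CPM (log axis) of the 8 mitochondrial genes in each library; symbols are the libraries A, B and C, colours the groups, and black lines the group means. WT and R783H points are apart for the 3 complex IV mRNAs, mt-Atp6 and both rRNAs and overlap for mt-Cytb and mt-Atp8, with WT above R783H for the rRNAs alone among the 6 that are apart.

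The rRNAs form the cores of the small and large mitochondrial ribosomal subunits. The 12S rRNA mt-Rnr1 (Entrez 17724, chrM:70-1024, plus strand) stood at 70.5, 68.1 and 81.2 CPM in R783H A, B and C and at 198.5, 202.6 and 208.1 CPM in WT A, B and C. The lowest WT library was far above the highest R783H library. The group means were 203 ± 4.83 CPM (WT) and 73.3 ± 6.98 CPM (R783H; SD, n = 3 each), and mt-Rnr1 fell by 63.9% in the fit. Its log2 fold change was -1.47 (SE 0.06; edgeR, adjusted p = 3.55e-08).

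The 16S rRNA mt-Rnr2 (Entrez 17725, chrM:1094-2675, plus strand) stood at 332, 268 and 331 CPM in R783H A, B and C and at 655, 713 and 751 CPM in WT A, B and C. The groups were again apart, with R783H B the lowest library of all. The log2 fold change was -1.19 (SE 0.08), a decrease by a factor of 2.27 (edgeR, adjusted p = 4.10e-07). The ratio of mt-Rnr2 to mt-Rnr1 counts was 4.71, 3.94 and 4.08 in R783H and 3.30, 3.52 and 3.61 in WT, without overlap (two-sided exact permutation p = 0.1, the smallest possible). For each count from the 13 mitochondrial mRNAs there were 0.0240 ± 0.00185 rRNA counts in R783H and 0.0742 ± 0.00192 in WT (SD, n = 3 each), a ratio 3.10-fold lower in R783H.

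Other RNAs that mostly lack a poly(A) tail were counted for comparison. Of 16 such structural RNAs in the table, 5 had enough counts to test, and edgeR called 3 lower (Rpph1, Rn7sk and Rnu7, the last 2 named after their values were seen) and 0 higher, with a median log2 fold change of -2.03. That is 60% called, against 64.5% of all tested genes, of which 30.9% were lower. These are low counts: in the fit limited to genes with at least 10 counts in every library 1 was lower, and the median was -1.27 with limma-voom and -0.92 without WT C. At an unadjusted p under 0.05 the numbers were 4 and 0, and DESeq2 and limma-voom each called 3 lower and 0 higher. The largest was Rpph1, the RNA of RNase P, at 12.9 ± 2.92 CPM in WT against 0.790 ± 0.403 CPM in R783H (SD, n = 3 each). Among 26 tested clustered core histone genes, whose mRNAs end in a stem-loop in place of a tail, edgeR called 18 lower and 0 higher (18 and 0 at an unadjusted p under 0.05, 13 and 0 by DESeq2, 17 and 0 by limma-voom), with 11 lower where every library had at least 10 counts and 30 with no filter. The called share was 69.2%, near the 64.5% over all tested genes, where 30.9% were lower and 33.5% higher. Their summed level was 46.5 to 50.9 CPM in R783H and 71.2 to 85.9 CPM in WT. These histone genes share near-identical sequence, so counts of single members are uncertain. The part of these RNAs' common feature, selection by poly(A) tail, in the rRNA difference was not tested.

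All 3 mitochondrial mRNAs of complex IV were higher. The most abundant member, mt-Co1 (Entrez 17708, chrM:5328-6872, plus strand), encodes the subunit that binds oxygen. It stood at 9424, 9113 and 9354 CPM in R783H A, B and C and at 5740, 6019 and 6006 CPM in WT A, B and C. Spread within a group was small, with a coefficient of variation of 1.75% in R783H and 2.66% in WT, and the groups were far apart. The log2 fold change was 0.65 (SE 0.04), a 1.57-fold increase (edgeR, adjusted p = 2.52e-07). By mean CPM mt-Co1 ranked 2 among all tested genes, and its share of the counts of the 13 mitochondrial mRNAs was 48.4% ± 0.524 in WT and 58.2% ± 1.01 in R783H (SD, n = 3 each).

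The copper-binding subunit's mRNA mt-Co2 (Entrez 17709, chrM:7013-7696, plus strand) stood at 130.4, 118.8 and 128.4 CPM in R783H A, B and C and at 70.99, 92.8 and 69.98 CPM in WT A, B and C. WT B was the highest WT library but stayed below every R783H library. The log2 fold change was 0.69 (SE 0.09; edgeR, adjusted p = 6.39e-05). The largest increase of the 8 was in mt-Co3 (Entrez 17710, chrM:8607-9390, plus strand), the third core subunit. Its values were 127.8, 98.0 and 127.3 CPM in R783H and 54.2, 60.6 and 47.2 CPM in WT. The groups were apart, with R783H B nearest to WT. The log2 fold change was 1.12 (SE 0.11), a 2.18-fold increase (edgeR, adjusted p = 4.98e-06).

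Of the complex V pair mt-Atp6 rose and mt-Atp8 was not called. The proton channel subunit's mRNA mt-Atp6 (Entrez 17705, chrM:7927-8607, plus strand) stood at 78.3, 45.5 and 58.7 CPM in R783H A, B and C and at 39.1, 41.7 and 35.4 CPM in WT A, B and C. The groups were apart by a small margin only, between R783H B and WT B. The log2 fold change was 0.65 (SE 0.15; edgeR, adjusted p = 0.00327). Without R783H A it was 0.41 and without R783H B 0.80, and it was called in both. The neighbouring mt-Atp8 (Entrez 17706, chrM:7766-7969, plus strand) had just 213, 215 and 286 counts in R783H and 225, 169 and 200 counts in WT. As CPM these are 7.09, 7.58 and 9.66 in R783H and 11.1, 6.89 and 9.37 in WT, with the groups mixed. Its log2 fold change of -0.16 (SE 0.17) was not called (edgeR, adjusted p = 0.416), and the 95% confidence interval of -0.53 to 0.21 leaves room for a decrease to 0.694-fold or an increase to 1.15-fold. Although both lie on a shared transcript, the ratio of mt-Atp8 to mt-Atp6 counts was 0.0905, 0.166 and 0.165 in R783H and 0.285, 0.165 and 0.265 in WT. The ranges overlap (two-sided exact permutation p = 0.2).

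The only mitochondrially encoded complex III subunit, mt-Cytb (Entrez 17711, chrM:14145-15288, plus strand), stood at 1585, 1336 and 1486 CPM in R783H A, B and C and at 1297, 1394 and 1448 CPM in WT A, B and C. R783H B lay among the WT libraries. The log2 fold change was 0.09 (SE 0.06; edgeR, adjusted p = 0.229), with a 95% confidence interval of -0.05 to 0.23, so an increase above 1.17-fold is outside the interval. The call depended on R783H B and on the scaling: without R783H B the fold change was 0.13 with an adjusted p of 0.0107, with library size alone it was 0.17 with an adjusted p of 0.0389, and with the length and GC offset 0.13 with an adjusted p of 0.00600 (all edgeR). Over its 17 alternatives scaled on all or on nuclear genes the adjusted p ran from 0.00600 to 0.831, and 3 of them gave a call.

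Levels differed far more between the genes than between the groups. Per kilobase of gene, mt-Co1 stood at 3833 ± 102 CPM per kb in WT (SD, n = 3), mt-Cytb at 1206 ± 66.9, mt-Rnr2 at 446 ± 30.5, mt-Rnr1 at 213 ± 5.06 and mt-Co2 at 114 ± 18.9 CPM per kb. At the low end mt-Co3 stood at 68.8 ± 8.57, mt-Atp6 at 56.9 ± 4.64 and mt-Atp8 at 44.8 ± 10.5 CPM per kb, and each of these 3 overlapped its neighbour in the order. The order in R783H was mt-Co1 (6018 ± 105.6), mt-Cytb (1284 ± 109.9), mt-Rnr2 (196 ± 23.2), mt-Co2 (184 ± 9.10), mt-Co3 (150.1 ± 21.8), mt-Atp6 (89.3 ± 24.2), mt-Rnr1 (76.7 ± 7.31) and mt-Atp8 (39.7 ± 6.69 CPM per kb). There mt-Rnr2 overlapped mt-Co2, and mt-Atp6 overlapped mt-Rnr1. The 12S rRNA thus moved from above mt-Co2 and mt-Co3 in WT to below both in R783H.

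Of the genes at the low end, mt-Co3 and mt-Atp6, like mt-Co2, match annotated nuclear copies of mitochondrial DNA almost in full. For mt-Atp8 most of the matching nuclear interval was not searched. Among GENCODE M21 transcripts, mt-Co2 matched the pseudogene Gm28661 (chr1:24614885-24615565) at 100% identity over 681 bases, mt-Atp6 matched Gm10925 (chr1:24613974-24614651) at 100% over 678 bases, and mt-Co3 matched Gm28437 (chr1:24613189-24613971) at 100% over 783 bases. These matches cover 99.6%, 99.6% and 99.9% of the genes. The mt-Co1 gene matched the pseudogene Gm29216 (chr1:24615706-24616197) without a mismatch over its last 479 bases, 31.0% of the gene. The edge of that stretch is shown with 9 bases before it in lower case and the first 21 identical bases in capitals.
mt-Co1: taaccggaaTTGTTTTATCCAACTCATCCC
Gm29216: tggcaggatTTGTTTTATCCAACTCATCCC
All 4 copies lie on the minus strand of chromosome 1 with the same spacing as on the mitochondrial genome. The place that mt-Atp8 would take there is chr1:24614609-24614812. The last 43 bases of mt-Atp8, its overlap with mt-Atp6, fall within Gm10925 there, and the rest lies in a gap between annotated copies that was not searched, since transcripts were compared and no genome sequence was used.

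Of all windows of 50 bases in each gene, 100% in mt-Co2, 99.5% in mt-Atp6, 99.9% in mt-Co3 and 51.1% in mt-Co1 occur exactly in a transcript of a nuclear gene. The share was 1.0% in mt-Rnr2 and 0 in mt-Rnr1, mt-Cytb and, within annotated transcripts, mt-Atp8, whose 43 bases in Gm10925 are shorter than a window. The best nuclear match of mt-Cytb had 92.9% identity (Gm11410), and mt-Co1 also had a full-length match of 97.6% (Gm13340). How the counting treated reads that fit both places is not given in the sources used here, and its part in the low levels was not tested. Levels and differences of mt-Co2, mt-Co3 and mt-Atp6 are uncertain to that extent, and so are that part of mt-Co1 and the 43 bases of mt-Atp8. For the rest of mt-Atp8 a nuclear copy was not searched for.

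**Figure D2:**
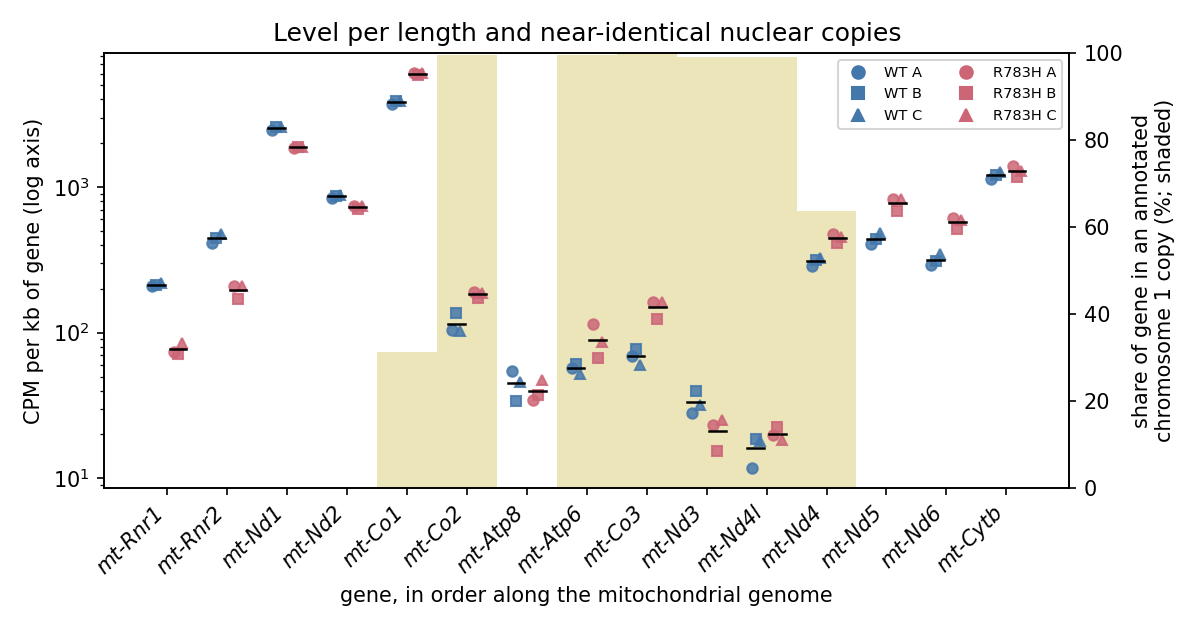
CPM per kilobase of gene (left, log axis) in each library for all 15 mitochondrial genes in genome order, with group means as black lines; shading (right axis) gives the percentage of each gene in a match of at least 100 bases to an annotated chromosome 1 copy above 99% identity. The genes mt-Co2, mt-Atp6 and mt-Co3, shaded to at least 99.6%, lie at or below 191 CPM per kb, whereas mt-Co1, shaded to 31.3%, reaches 6100.

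Along the mitochondrial genome the changes formed no single trend. From the start of the heavy-strand genes the log2 fold changes were -1.47 in mt-Rnr1 and -1.19 in mt-Rnr2, and the complex I mRNAs mt-Nd1 and mt-Nd2 that come next stood at -0.44 (SE 0.04) and -0.25 (SE 0.04). From mt-Co1 to mt-Co3 they were 0.65, 0.69, -0.16, 0.65 and 1.12. Among the 7 complex I mRNAs 3 were called higher, 3 lower and 1 was not called. The share called was 85.7%, against 64.5% of all tested genes (33.5% higher and 30.9% lower). Values ran from -0.65 in mt-Nd3 to 0.86 in mt-Nd6, the only mRNA of the other strand. Genes with a chromosome 1 copy were among both directions, with mt-Co3 the highest and mt-Nd3 the lowest mRNA. The complex I genes as a whole took 0.505% ± 0.0270 of counts in R783H and 0.463% ± 0.0222 in WT (SD, n = 3 each), and these shares overlapped between the groups (two-sided exact permutation p = 0.2).

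**Figure D3:**
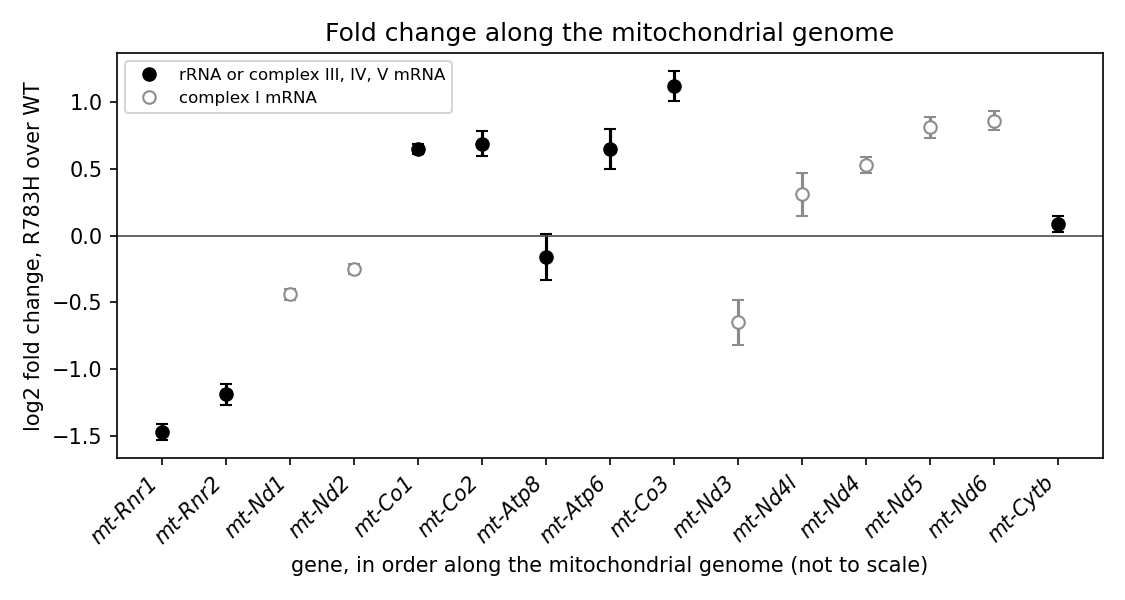
Log2 fold change of R783H over WT (bars, SE of the fit) for the 15 mitochondrial genes in genome order; filled points are the rRNAs and the complex III, IV and V mRNAs, open points the complex I mRNAs. Both rRNAs lie below -1, mt-Nd1 and mt-Nd2 at -0.44 and -0.25, and mt-Co3 highest at 1.12.

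Among the 8 genes, GC content was lower in the rRNAs than in the mRNAs that rose, by a small margin for mt-Atp6. Of the complex I mRNAs that rose, mt-Nd6 was at 34.1%, mt-Nd4 at 35.6% and mt-Nd5 at 37.1%, so not all were above both rRNAs. GC content was 35.8% in mt-Rnr1 and 35.4% in mt-Rnr2, below the 36.0% of mt-Atp6, 38.6% of mt-Co2, 38.9% of mt-Co3 and 39.9% of mt-Co1. The mRNAs that were not called were at 39.1% (mt-Cytb) and 31.9% (mt-Atp8), the highest but one and the lowest of the 8. Adenosine made up 37.8% and 38.2% of the rRNAs, more than in any mRNA except mt-Atp8 (40.7%). With an offset for transcript length and GC the rRNAs were at -1.47 and -1.23. Runs of at least 6 adenosines, which could bind oligo(dT) inside an RNA, numbered 4 in mt-Rnr2, 1 in mt-Co1 and 0 in the other 6 genes. The part of such runs in the counts was not tested.

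The scale matters for this gene set, because all values above are relative to the whole library. Measured relative to the 13 mitochondrial mRNAs, mt-Rnr1 was at -1.86 (SE 0.07) and mt-Rnr2 at -1.57 (SE 0.07), mt-Co3 at 0.73 (SE 0.10), mt-Co2 at 0.30 (SE 0.09) and mt-Co1 at 0.27 (SE 0.07), all 5 still called. On that scale mt-Cytb was lower (-0.30, SE 0.07, adjusted p 9.21e-04), mt-Atp8 was lower (-0.55, adjusted p 0.00618) and mt-Atp6 was not called (0.26, adjusted p 0.0816), by edgeR, with 70.3% of all genes called. This scale lowers the median of all genes by 0.39, and mt-Co1 alone makes up most of its denominator in R783H. Another scale, chosen after seeing the data, was the 5 mitochondrial mRNAs with no copy above 99% identity (mt-Nd1, mt-Nd2, mt-Nd5, mt-Nd6 and mt-Cytb). On it 58.3% of all genes were called, and the 8 values differed from those on the whole-library scale by at most a few hundredths. There mt-Co1 was 0.64, mt-Co3 1.10, mt-Rnr1 -1.48 and mt-Rnr2 -1.20. These 5 mRNAs themselves changed in both directions on the whole-library scale, from -0.44 in mt-Nd1 to 0.86 in mt-Nd6. Their sum nonetheless moved little against the whole library, since on this scale the median of all genes shifted by -0.01. It combines opposite changes of single mRNAs, and mt-Cytb is also among the 8 genes.

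**Figure D4:**
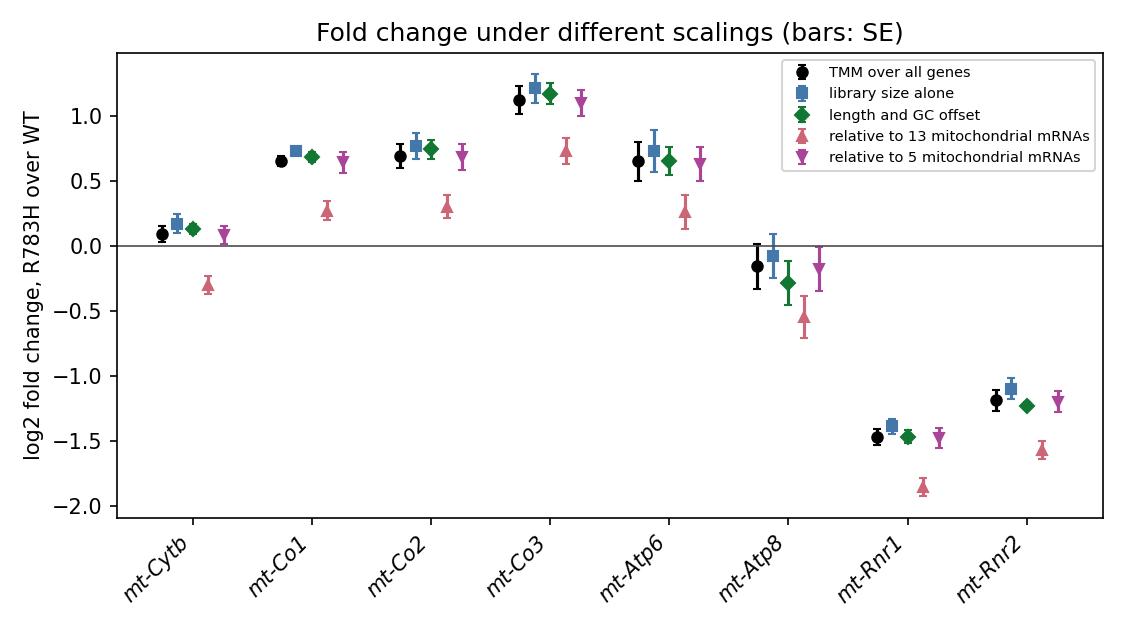
Log2 fold change of R783H over WT for the 8 genes under 5 scalings or offsets (symbols; bars, SE of the fit). Both rRNAs are below 0 and all 3 complex IV mRNAs above 0 under each of the 5, whereas mt-Cytb is at -0.30 relative to the 13 mitochondrial mRNAs and above 0 under the others.

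Pairs of the 8 genes were compared by their pattern over the 6 libraries, and no grouping was computed. Likeness was the root mean square (RMS) difference of log2 CPM, each gene centred on its own mean. The most alike pairs were mt-Co1 with mt-Co2 (0.13) and mt-Rnr1 with mt-Rnr2 (0.17), and the least alike was mt-Rnr1 with mt-Co3 (1.31). The overlapping pair mt-Atp8 and mt-Atp6 was at 0.54, and mt-Atp8 was closer to mt-Cytb (0.30). Among 11674 nuclear genes with at least 50 counts on average, Mobp (0.073), Tasor2 (0.085) and Ddx4 (0.088), a germ-cell RNA helicase, were nearest to the mean of the 2 rRNAs. Among the nearest to the mean of the 6 mRNAs were Pigb (0.033) and Ddhd2 (0.034). The 6 libraries form 2 groups, so a gene with a similar difference between the groups is near by this measure.

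In each list of nuclear genes that serve mitochondrial RNA or its translation, more genes were called lower than higher in R783H, while the share called, 53.3% to 65.2%, was near or below that of all tested genes (64.5%). Of 19 genes of mitochondrial transcription and DNA maintenance 8 fell and 4 rose, and the median log2 fold change was -0.12 against 0.03 over all tested genes. With library size alone 5 fell, and the median was -0.04; without WT B the median was -0.07. The mitochondrial RNA polymerase Polrmt was at 85.5 ± 3.36 CPM in WT against 78.6 ± 5.88 CPM in R783H (SD, n = 3 each) and was not called (-0.12, SE 0.06), but without R783H B it was at -0.21 with an adjusted p of 6.15e-04 by edgeR. Tfam, which packages mitochondrial DNA and starts transcription, fell from 101.9 ± 0.253 to 79.97 ± 2.85 CPM (-0.35, SE 0.05). Largest in this list were Primpol (0.98, SE 0.10), a primase-polymerase, Dguok (0.93, SE 0.07), a deoxyguanosine kinase, and Top1mt (-0.72, SE 0.13), the mitochondrial topoisomerase. The other 2 that rose, named after their values were seen, were Rrm2b (0.69, SE 0.17) and Tk2 (0.36, SE 0.06), which supply DNA precursors.

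Of 22 genes of RNA processing, stability and tailing 11 fell and 2 rose, with a median of -0.15 (-0.07 with library size alone, where 6 rose). The other riser beside Lrpprc was Fastkd1 (0.22, SE 0.05; named after its value was seen). Mtpap, which adds the poly(A) tails, was at 48.4 ± 1.33 CPM in WT against 47.3 ± 0.402 CPM in R783H (SD, n = 3 each), with a log2 fold change of -0.03 (SE 0.05). The pair that binds and stabilises mitochondrial mRNAs went in opposite directions: Lrpprc rose by 0.18 (SE 0.04) and Slirp was lower (-0.37, SE 0.07). With the length and GC offset Lrpprc was at 0.07 and not called (adjusted p 0.0755, edgeR's quasi-likelihood test). The RNA-degrading partners Pnpt1 (0.09, SE 0.06) and Supv3l1 (-0.04, SE 0.05) were not called, although the log2 fold change of Pnpt1 was called with library size alone (0.17; edgeR, adjusted p = 0.0273) and without R783H B (0.12; edgeR, adjusted p = 0.0200). Elac2, the nuclease that cuts the 3′ ends of tRNAs, was lower (-0.43, SE 0.05), as were Tbrg4 (-0.38, SE 0.05) and Ptcd2 (-0.37, SE 0.05).

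Genes that modify mitochondrial rRNA or assemble its ribosome were lower in 15 of 23 cases, with 0 higher and a median of -0.18 (edgeR). The called share of 65.2% was near the 64.5% of all tested genes, of which 30.9% were lower and 33.5% higher. Numbers at an unadjusted p under 0.05 were 15 and 0, while DESeq2 called 14 lower and 0 higher and limma-voom 15 and 0. With library size alone 9 were lower and 1 higher, and 1 was also higher with the length and GC offset. Mrm3, a 16S rRNA methyltransferase, was lower (-0.62, SE 0.08), and Trmt61b (-0.58, SE 0.12), also a methyltransferase, and Mettl17 (-0.52, SE 0.06) were lower too. Mettl17 stood at 34.9 ± 0.522 CPM in WT against 24.3 ± 0.832 CPM in R783H (SD, n = 3 each). Among 15 translation factors 7 fell and 1 rose (Oxa1l at 0.20, SE 0.07, named after its value was seen), with a median of -0.19. With library size alone or without WT A 4 fell, without R783H B 2 rose, and without WT B or WT C 0 rose. Tufm, the mitochondrial elongation factor Tu, was at -0.49 (SE 0.07), Ptcd3 at -0.32 (SE 0.04) and Tsfm, the elongation factor Ts, at -0.31 (SE 0.05).

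For the nuclear subunits of the same complexes the share called was 75% (complex III), 54.5% (complex IV) and 88.9% (complex V), against 64.5% of all tested genes. For complex III 0 of 8 tested subunits were higher and 6 lower by edgeR (0 and 7 at an unadjusted p under 0.05, 0 and 6 by DESeq2 and by limma-voom; 1 was higher with library size alone or the length and GC offset), with cytochrome c1, Cyc1, at -0.56 (SE 0.06), Uqcr10 at -0.43 (SE 0.05) and Uqcrc1 at -0.37 (SE 0.06). For complex IV 3 of 11 were higher (Cox7c at 0.35, Ndufa4 at 0.25 and Cox6a1 at 0.20, named after their values were seen) and 3 lower, with a median of -0.07 that turned to 0.01 with library size alone and 0.10 with the length and GC offset, where 5 were higher. Cox7a2 (-0.78, SE 0.07), Cox5b (-0.48, SE 0.05) and Cox5a (-0.35, SE 0.04) were the largest changes there, and without R783H B 5 were lower. For complex V 1 of 18 was higher, the c subunit gene Atp5g2 (0.63, SE 0.15), and 15 were lower, among them the other c subunit genes Atp5g1 (-0.62, SE 0.07) and Atp5g3 (-0.54, SE 0.05). Of these c subunit genes Atp5g2 was the lowest in level, with means of 5.37 CPM in WT and 8.28 CPM in R783H. Atp5g1 had means of 30.35 and 19.78 CPM, and Atp5g3 of 560.7 and 384.8 CPM. With library size alone 9 of the 18 were lower.

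Of the assembly factors 83.3% (complex III), 71.4% (complex IV) and 80% (complex V) were called, against 64.5% of all tested genes. For complex III 1 of 6 was higher (Ttc19 at 0.25) and 4 were lower, for complex IV 4 of 21 were higher (Coa4 at 0.44, Cox15 at 0.34, Coa8 at 0.27 and Surf1 at 0.20) and 11 lower, and for complex V 0 of 5 were higher and 4 lower by edgeR (0 and 4 also at an unadjusted p under 0.05, by DESeq2 and by limma-voom). Those that were higher are named after their values were seen. The list medians were -0.23, -0.15 and -0.42. With library size alone the 11 became 7, and the 1 complex III factor called higher was not called without R783H A, R783H C or WT B. Examples are Uqcc3 (-0.67, SE 0.07), Uqcc2 (-0.48, SE 0.08) and Bcs1l (-0.26, SE 0.07) for complex III, Coa6 (-0.60, SE 0.07), Timm21 (-0.58, SE 0.07) and Cmc2 (-0.55, SE 0.07) for complex IV, and Tmem242 (-0.50, SE 0.07), Atpaf2 (-0.42, SE 0.07) and Tmem70 (-0.42, SE 0.07) for complex V. Without WT B the log2 fold change of Bcs1l was -0.21 and not called (edgeR, adjusted p = 0.0504). Whether nuclear and mitochondrial genes of a complex moved apart was not tested as such.

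**Figure D5:**
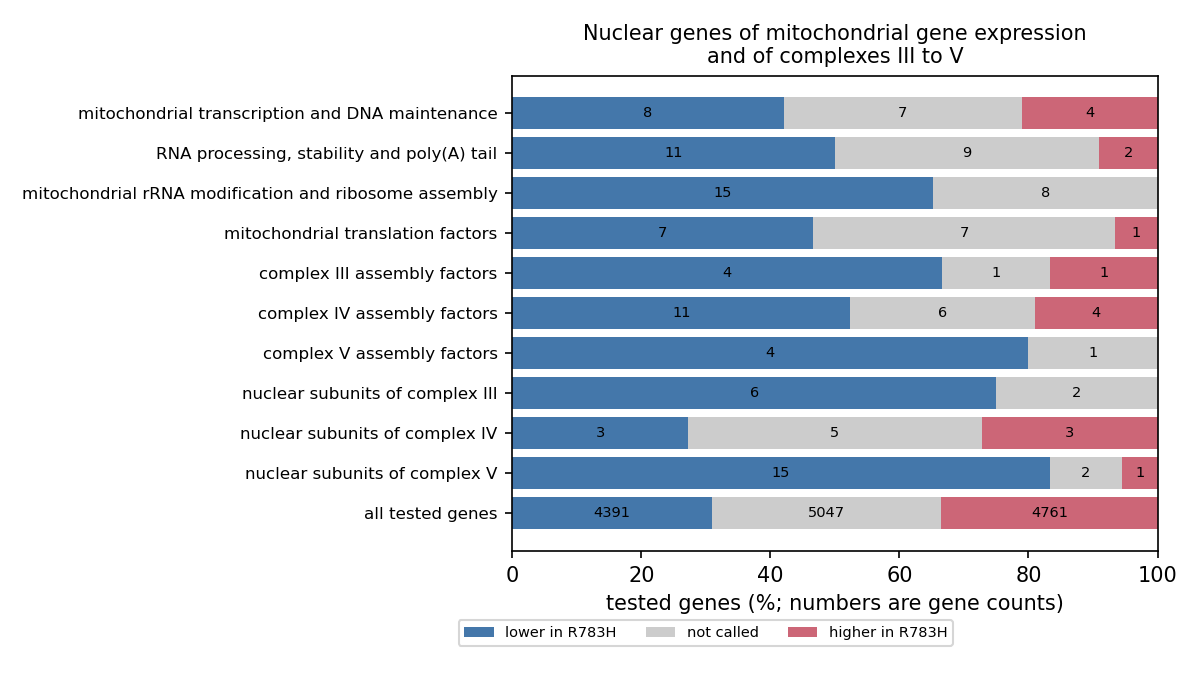
Percentage of tested nuclear genes in each list called lower, not called or called higher in R783H, with gene counts printed in the bars and all 14199 tested genes at the bottom. Lower calls exceed higher calls in every list but the nuclear subunits of complex IV, where 3 and 3 were called, while over all genes 4391 were lower and 4761 higher.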

How the data were processed

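The authors deposited raw counts per Entrez gene for 6 libraries. The submitters' processing notes name CASAVA 1.4, HISAT2, SAMtools and mm10. The counter, its annotation, the use of strand and the treatment of multi-mapping reads are not given in the sources used here. Symbols came from RefSeq GRCm38.p6 (25275 of 27179 identifiers matched). Mitochondrial rows took GENCODE M21 names by equal start and end.

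Counts were fitted in R 4.3.3 with edgeR 4.0.16: filterByExpr (minimum count 10, total 15), TMM scaling, group as the only term, the quasi-likelihood test and Benjamini-Hochberg adjustment over 14199 genes, with calls under 0.05. CPM uses the TMM-scaled library size, and SE is the fold change over the square root of F. limma 3.58.1 (voom) and DESeq2 1.42.0 were alternatives, as were scaling on the 13 mitochondrial mRNAs or, chosen after seeing the data, on 5 of them, other scalings and filters, thinning to 20894277 counts, leaving out each library, a replicate block, and a spline offset for transcript length and GC (13051 genes). Pseudogenes were found with BLAST 2.17.0 over GENCODE transcripts (at least 90% identity over 100 bases). The fit was tested on simulated counts, where it called 93 of 100 genes changed 2-fold and 73 of 100 changed 1.5-fold. It also called 9 unchanged genes.

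Named are all 8 genes, 7 fixed regulators and, in each list, at most the 3 calls of greatest fold change whose higher group averaged 50 counts or more. Other list genes, mostly those behind small counts, were named after their values were seen, and 1 gene of the likeness ranking is not reported here. Members and lists were chosen with earlier results of these data known. Intervals cover the spread between libraries. Without molecular identifiers, reads need not be independent molecules.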

Additional observations from a re-analysis of the deposited data

How the results depend on the processing

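Both rRNAs, the 3 complex IV mRNAs and mt-Atp6 kept direction and call in all 17 alternatives scaled on all or on nuclear genes. With each library left out, log2 fold changes ran from -0.34 to 0.00 in mt-Atp8 (0.00 without WT A) and from 0.02 to 0.13 in mt-Cytb. For mt-Cytb library size alone gave 0.17 and the length and GC offset 0.13, both called. Relative to the 13 mitochondrial mRNAs mt-Cytb reversed to -0.30, mt-Atp8 was called at -0.55 and mt-Atp6 was no longer called at 0.26; by construction that scale counts a rise of the mRNAs' sum as none. The log2 ratio of the 2 mitochondrial rRNAs to the 13 mitochondrial mRNAs differed by -1.63 (-1.68 to -1.57 with each library left out), and by -2.11 as the median of the ratios to each mRNA. With library size alone the uncalled Mtpap and Supv3l1 turned to 0.05 and 0.04. Of 714 list counts and medians recomputed, 84 moved beyond their limits, 12 of them with the length and GC offset. Calls over all genes were 9152, and between 8161 and 9882 in the alternatives scaled on all or on nuclear genes.

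The replicate letters did not pair the libraries: deviations of libraries with the same letter correlated at -0.07, 0.01 and 0.09 across genes. With the replicate block 9260 genes were called, mt-Rnr1 was at -1.47, mt-Co1 at 0.65 and mt-Atp6 at 0.62, and no call among the 8 genes changed. At 169 to 286 counts a library, mt-Atp8 had an SE of 0.17, and of 0.18 with counts thinned to the smallest library.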
